A study of Homo sapiens with 24 samples.

Results

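The genes described here are 8 target and feedback genes of bone morphogenetic protein (BMP) and transforming growth factor beta (TGF-beta) signalling: ID1, ID2, ID3, SMAD6, SMAD7, BAMBI, BMP4 and SKIL. They were taken by symbol from the 25343 genes listed for each library, and all 8 were found and passed the filter on low counts in both cell lines. The set was selected on levels and log2 differences measured in these same 24 libraries, and no single comparison is recorded as its source. Values, differences and adjusted p-values of these genes are therefore given as a description of size against the spread between libraries, and nothing is supported by how many of them were called.

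The lines were HCT116 (from a colon cancer) and A375 (from a melanoma), each as the parent (wild type for PTDSS2) and as 1 PTDSS2 knockout clone per line, numbered PTDSS2-KO#3 in HCT116 and PTDSS2-KO#54 in A375. PTDSS1 and PTDSS2 are the phosphatidylserine synthases, and DS07551382 is the PTDSS1 inhibitor of the study. All cells were treated for 24 h, with the solvent DMSO (vehicle) or with 0.1 µM DS07551382 (inhibitor). Each of the 8 groups had 3 libraries. The labels do not say whether these came from separate cultures, and a p-value here reflects the spread among the libraries alone, part or all of which may be technical.

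BMP ligands such as BMP4 bind paired type I and type II receptors on the cell surface, which phosphorylate the signal-carrying SMADs 1, 5 and 9. TGF-beta and activin do the same through SMADs 2 and 3, and both branches use SMAD4 as partner on DNA. The ID genes are classic immediate targets of the BMP branch and encode helix-loop-helix proteins that lack a DNA-binding region and hold E proteins such as TCF3 away from their target genes. SMAD6 and SMAD7 encode inhibitory SMADs, BAMBI a pseudoreceptor without kinase activity, and SKIL the nuclear co-repressor SnoN, and all 4 dampen the pathways that induce them. ID expression is also driven by serum and other signals, so a level of an ID RNA is not by itself a measure of BMP signalling.

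The stretches of 250 bases before the annotated start of ID1, ID2, ID3 and SMAD6 are shown because the results below turn most on these genes and each has a single annotated window. The sequences are from RefSeq on GRCh38.p14 and are printed 5′ to 3′ on the gene's strand. Capitals mark the SMAD element GTCT (AGAC on the other strand) and the GC-rich BMP element GGAGCC or GGCGCC, also on either strand.
ID1, chr20:31605039-31605288, plus strand: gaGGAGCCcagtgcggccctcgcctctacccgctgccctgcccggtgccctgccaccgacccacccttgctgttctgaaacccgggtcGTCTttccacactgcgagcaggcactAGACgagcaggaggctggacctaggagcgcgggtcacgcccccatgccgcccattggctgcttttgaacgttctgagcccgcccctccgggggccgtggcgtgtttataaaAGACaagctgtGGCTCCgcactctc
ID2, chr2:8681806-8682055, plus strand: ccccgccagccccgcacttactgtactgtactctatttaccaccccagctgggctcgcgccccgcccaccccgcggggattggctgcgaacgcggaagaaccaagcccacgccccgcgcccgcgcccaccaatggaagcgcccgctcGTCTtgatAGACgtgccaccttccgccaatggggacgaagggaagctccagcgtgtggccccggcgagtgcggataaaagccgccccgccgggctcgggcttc
ID3, chr1:23559502-23559751, minus strand: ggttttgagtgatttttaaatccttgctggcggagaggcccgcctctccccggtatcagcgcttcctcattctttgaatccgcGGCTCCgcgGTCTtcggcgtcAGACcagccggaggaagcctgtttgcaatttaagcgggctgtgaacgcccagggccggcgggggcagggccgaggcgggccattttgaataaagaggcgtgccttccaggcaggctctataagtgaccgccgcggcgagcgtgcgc
SMAD6, chr15:66701986-66702235, plus strand: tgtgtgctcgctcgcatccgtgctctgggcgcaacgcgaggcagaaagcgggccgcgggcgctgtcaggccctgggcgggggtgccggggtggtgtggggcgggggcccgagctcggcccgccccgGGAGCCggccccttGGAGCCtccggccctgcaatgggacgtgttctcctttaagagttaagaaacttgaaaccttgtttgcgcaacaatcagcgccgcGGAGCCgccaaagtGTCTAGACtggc
In each of the 3 ID windows a GTCT is followed further downstream by an AGAC. The same order occurs in the window of BAMBI and in a window of SMAD7, and its share among all windows was not computed. In SMAD6 the pair is joined as GTCTAGAC, beginning 12 bases before the start. This joined form, which holds the SMAD element on both strands, was present in 64 of 35116 RefSeq windows of the same length (0.182%), and among the 12 windows of the 8 genes SMAD6 alone had it. A window of SMAD7 has the same runs joined in the other order, AGACGTCT, beginning 127 bases before the start. The share of that form was not computed. The single element GTCT is common, present in 77.5% of all windows and in 11 of these 12. GGAGCC was present in 30.6% of all windows and in 7 of these 12, GGCGCC in 16.4% and 3, and the E-box CANNTG, the site of E proteins, in 61.8% and 4. The AP-1 site TGANTCA (6.57% of all windows) was in none of the 12, and the ATF site TGACG (21.2%) was in 2, those of ID3 and SKIL. BMP4 and SMAD7 have 3 annotated windows each. The shares over all windows were not matched for GC content, which ran from 48.0% in a window of SMAD7 to 81.2% in that of BAMBI. A match is a run of letters and was not tested as a site.

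Series-wide checks bear on the labels. Library totals ran from 6211629 to 11688266 counts, with a median of 9200459. In vehicle, the knockout clone held 18.5% of its parent's PTDSS2 RNA in HCT116 and 3.83% in A375. Of 8 colon epithelium markers 6 averaged at least 1 transcripts-per-million unit (TPM) in every HCT116 group, and VIL1 and CDX1 were below it. Of 8 melanocyte lineage markers 4 did so in every A375 group, among them SOX10 and MITF, while the pigment genes PMEL, MLANA, TYR and DCT were below it. Within HCT116 the summed level of the colon markers was 4278 to 4367 TPM in knockout with inhibitor and 4855 to 5228 TPM in the other groups. The markers did not move together in the knockout, in log2 differences of inhibitor minus vehicle. KRT8, KRT18, KRT19 and CDX2 fell (-0.34, -0.41, -0.16 and -0.32), while EPCAM and CDH1 rose (0.37 and 0.25). Within A375 the summed level of the melanocyte markers was 372.6 to 398.4 TPM in knockout vehicle, 477 to 528 TPM in knockout with inhibitor and 437 to 479.6 TPM in the parent groups. There ERBB3, SOX10 and S100B rose with inhibitor in the knockout (0.51, 0.36 and 0.26), and MITF was not called (-0.18). The part of these markers in the results below was not tested.

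The lines used different members of the set before any treatment. Levels between genes are compared in TPM, which is scaled for gene length. In HCT116 parent vehicle ID1 stood at 395 ± 8.34 TPM (SD, n = 3), followed by BMP4 at 148 ± 5.66, ID2 at 97.9 ± 3.13 and ID3 at 79.4 ± 6.71. BAMBI was at 8.83 ± 1.13, SKIL at 4.12 ± 0.290, SMAD6 at 3.44 ± 1.40 and SMAD7 at 2.07 ± 0.237 TPM. The ranges of SKIL and SMAD6 overlapped, as did those of SMAD6 and SMAD7, so their order is not resolved. In A375 parent vehicle ID1 was again highest at 129 ± 8.68 TPM, followed by ID3 at 64.7 ± 7.10, BAMBI at 43.1 ± 2.61, SMAD6 at 24.8 ± 2.72, SKIL at 12.3 ± 0.910 and SMAD7 at 8.98 ± 0.622. ID2 at 3.59 ± 0.591 and BMP4 at 2.85 ± 0.695 TPM were lowest in A375, with overlapping ranges.

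Set against each other, A375 and HCT116 parents in vehicle differed for all 8 genes (edgeR adjusted p under 0.05), in a comparison in which 81.8% of all genes were called (42.2% higher in A375 and 39.6% lower). BMP4, the ligand, differed most, by -5.76 ± 0.10 on the log2 scale (A375 minus HCT116, standard error, n = 3 per group), and ID2 by -4.71 ± 0.13. ID1 was also lower in A375 (-1.56 ± 0.05). ID3 differed by -0.24 ± 0.10, a difference not called without HCT116 parent vehicle replicate 3 or A375 parent vehicle replicate 2 (-0.18 and -0.15). The brakes among the 8 genes were all higher in A375: SMAD6 by 2.95 ± 0.14, BAMBI by 2.34 ± 0.11, SMAD7 by 2.17 ± 0.18 and SKIL by 1.64 ± 0.09. Brakes of the pathway outside the 8 went both ways, and the ubiquitin ligase gene SMURF2, for example, was lower in A375 (-1.45 ± 0.04).

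**Figure D1:**
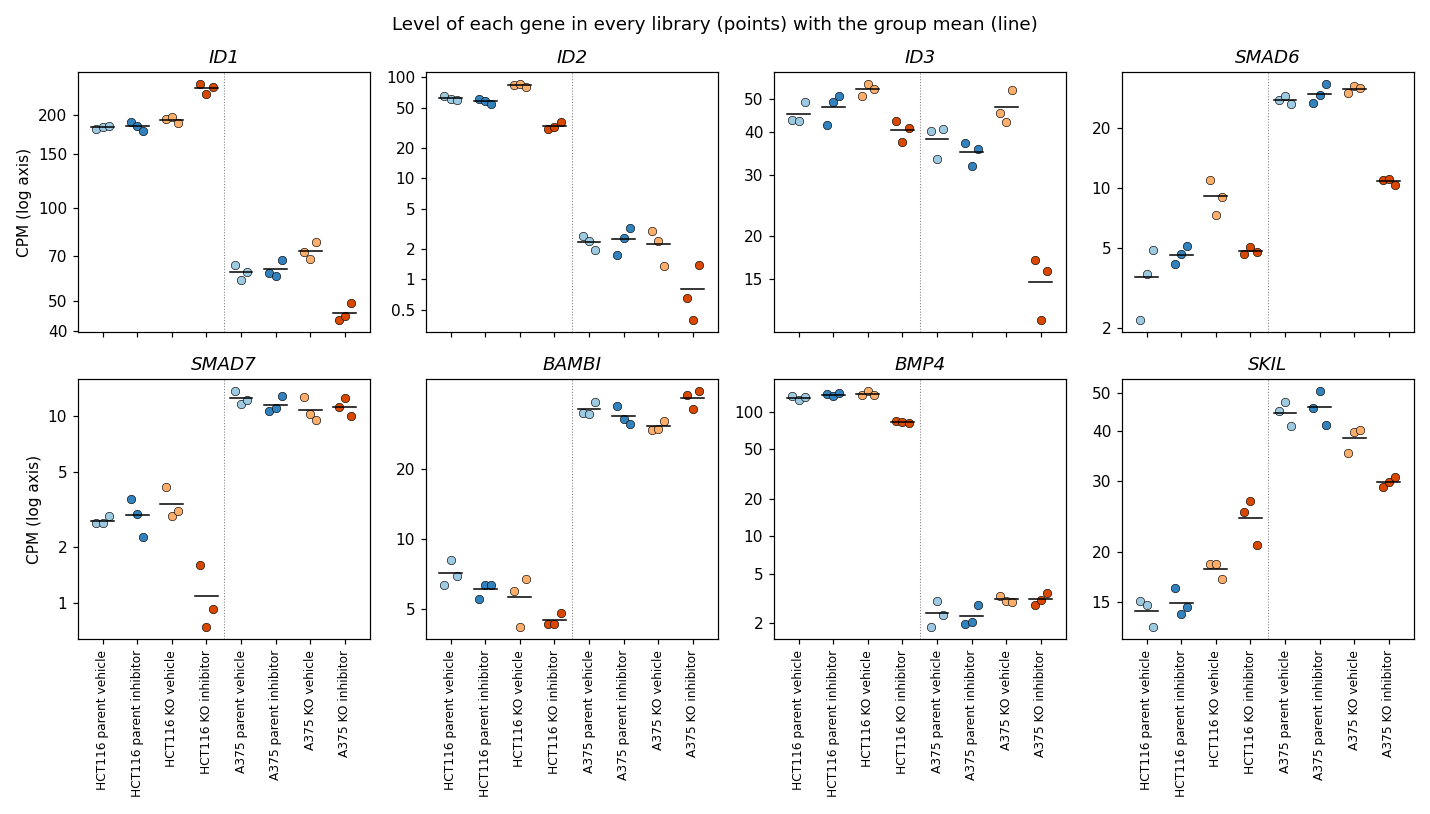
Each panel shows 1 gene in counts-per-million (CPM) on a log axis, with 1 point per library, a line at the group mean, and groups in order from HCT116 parent vehicle to A375 knockout with inhibitor (KO, knockout). The knockout libraries with inhibitor lie outside the range of all others of their line for ID1, ID2, SMAD7, BMP4 and SKIL in HCT116 and for ID1, ID3, SMAD6 and SKIL in A375. The share of all genes for which this holds is not given, so the list is a description of the panels.

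The parent lines show what the inhibitor did where PTDSS2 was intact, and there none of the 8 genes was called. In HCT116 parent cells, where edgeR called 0 of 13164 genes (0% of genes, 530 at an unadjusted p under 0.05; DESeq2 called 1 and limma-voom 0), the log2 differences of the 8 genes lay between -0.24 ± 0.18 for BAMBI and 0.37 ± 0.22 for SMAD6. In A375 parent cells, where 0.104% of genes were called, they lay between -0.13 ± 0.11 for ID3 and 0.11 ± 0.08 for SMAD6. None of these values had an unadjusted p under 0.05, and vehicle and inhibitor libraries overlapped for all 8 genes in both parents. Over all genes the libraries did not overlap for 9.89% in HCT116 parent cells and 12.0% in A375 parent cells. ID2, for example, had 64.7, 61.2 and 59.8 CPM in HCT116 parent vehicle and 61.2, 57.5 and 54.3 CPM with inhibitor, and the 95% interval of its difference ran from -0.22 to 0.01. SMAD6 had 27.8, 29.2 and 26.4 CPM in A375 parent vehicle and 26.7, 29.4 and 33.4 CPM with inhibitor, with an interval from -0.06 to 0.28. ID3 had 40.5, 33.5 and 40.8 CPM in A375 parent vehicle and 37.2, 31.9 and 35.9 CPM with inhibitor, with an interval from -0.37 to 0.10. For SMAD6 in HCT116, at a few CPM, the interval was wide, from -0.07 to 0.81.

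In the HCT116 knockout the inhibitor split the ID family. ID1 rose, ID2 fell to 39.5% of its vehicle level and ID3 fell slightly, while BMP4 and both inhibitory SMADs fell and SKIL rose. In all, 2 of the 8 genes rose and 5 fell, where 37.1% of the 13164 genes tested were called (17.1% up and 20.1% down). The libraries with and without inhibitor did not overlap for 7 of the 8, as for 45.2% of all genes tested. The median difference of the 8 was -0.57, beside 0.00 over all genes tested. The 8 genes were chosen on these data, so the gap between the medians is a description and supports no shared fall. CPM is a share of all reads, so less of an RNA per cell and fewer of the cells that make it cannot be told apart.

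ID1, the most abundant ID gene in these cells, had 194, 197 and 189 CPM in knockout vehicle and 252, 234 and 246 CPM with inhibitor. All libraries with inhibitor lay above all with vehicle, and the log2 difference was 0.34 ± 0.04 (edgeR adjusted p = 9.22e-12). ID2 went the other way, from 82.8, 86.0 and 79.3 CPM to 30.4, 31.8 and 36.0 CPM, again with no overlap. Its difference was -1.34 ± 0.07 (edgeR adjusted p = 1.59e-27). ID3 had 51.1, 55.4 and 53.6 CPM in vehicle and 43.2, 37.6 and 41.2 CPM with inhibitor, a difference of -0.38 ± 0.07 (edgeR adjusted p = 1.16e-05). Its levels with inhibitor lay below those of the parent in vehicle, 43.6, 43.3 and 49.0 CPM, by a narrow margin in the highest library.

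BMP4, the secreted ligand, fell with a small error. It had 137, 148 and 136 CPM in HCT116 knockout vehicle and 84.7, 83.0 and 80.8 CPM with inhibitor, 59.3% of the vehicle level (-0.75 ± 0.05, edgeR adjusted p = 1.32e-21). The 6 parent libraries all lay between 125 and 142 CPM, so the 3 libraries of knockout with inhibitor were the lowest of the line.

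The inhibitory SMADs were scarce in HCT116, and their values rest on few reads. SMAD6 had 11.0, 7.31 and 9.01 CPM in knockout vehicle (103, 65 and 84 reads) and 4.69, 5.05 and 4.79 CPM with inhibitor (38, 34 and 31 reads). The groups did not overlap, and the difference was -0.91 ± 0.20 (edgeR adjusted p = 1.59e-04). SMAD7 had 4.17, 2.92 and 3.11 CPM in vehicle (39, 26 and 29 reads) and 1.60, 0.743 and 0.926 CPM with inhibitor (13, 5 and 6 reads). Its fall of -1.59 ± 0.32 (edgeR adjusted p = 5.66e-05) had a 95% interval from -2.23 to -0.94, which spans that of ID2.

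The remaining brakes did not move alike in HCT116 knockout cells. SKIL, the co-repressor, had 18.7, 18.7 and 17.1 CPM in vehicle and 25.2, 26.9 and 20.8 CPM with inhibitor, a rise of 0.43 ± 0.10 (edgeR adjusted p = 4.85e-04). BAMBI, the pseudoreceptor, had 5.99, 4.16 and 6.75 CPM in vehicle and 4.32, 4.31 and 4.79 CPM with inhibitor. Its groups overlapped and its difference of -0.34 ± 0.20 was not called (edgeR adjusted p = 0.198).

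In the A375 knockout all 3 ID genes fell together with SMAD6, SKIL fell less, BAMBI rose, and neither SMAD7 nor BMP4 was called. Thus 1 of the 8 genes rose and 5 fell, where 37.5% of the 13455 genes tested were called (18.7% up and 18.8% down). The libraries with and without inhibitor did not overlap for 5 of the 8, as for 46.2% of all genes tested. The median difference of the 8 was -0.51, beside 0.01 over all genes tested, and the same limit of their choice on these data holds.

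ID1 had 72.0, 68.6 and 77.4 CPM in A375 knockout vehicle and 43.3, 44.7 and 49.2 CPM with inhibitor. Every library with inhibitor lay below every other A375 library, with a log2 difference of -0.67 ± 0.06 (edgeR adjusted p = 2.33e-14). ID3 fell to 31.0% of vehicle, from 45.6, 43.0 and 53.3 CPM to 17.0, 11.4 and 15.8 CPM. Its difference was -1.69 ± 0.12 (edgeR adjusted p = 3.39e-09), and the groups were far apart. ID2 was barely present in this line, with 29, 19 and 13 reads in vehicle and 6, 4 and 16 reads with inhibitor. In CPM its groups touched, 3.02, 2.41 and 1.37 against 0.650, 0.395 and 1.40, and the called difference of -1.42 ± 0.37 (edgeR adjusted p = 0.00154) has an error several times that of ID1.

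SMAD6 was the brake that changed most in A375. It had 29.9, 32.6 and 31.8 CPM in knockout vehicle and 11.0, 11.1 and 10.4 CPM with inhibitor, 34.5% of the vehicle level (log2 -1.54 ± 0.09, edgeR adjusted p = 4.60e-21). Its 9 other A375 libraries lay between 26.4 and 33.4 CPM. SMAD7, the other inhibitory SMAD, had 12.6, 10.3 and 9.46 CPM in vehicle and 11.2, 12.4 and 9.96 CPM with inhibitor. These ranges overlapped, with a difference of 0.04 ± 0.13 (edgeR adjusted p = 0.819).

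BAMBI rose in A375 knockout cells, from 29.5, 29.8 and 32.4 CPM to 41.6, 36.2 and 43.5 CPM, without overlap (0.40 ± 0.08, edgeR adjusted p = 1.66e-05). SKIL fell from 35.2, 39.8 and 40.4 CPM to 29.1, 29.9 and 30.7 CPM, also without overlap (-0.36 ± 0.08, edgeR adjusted p = 8.88e-05). BMP4 had 32, 24 and 28 reads in vehicle and 26, 31 and 40 reads with inhibitor, and its difference of 0.01 ± 0.24 was not called (edgeR adjusted p = 0.974).

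**Figure D2:**
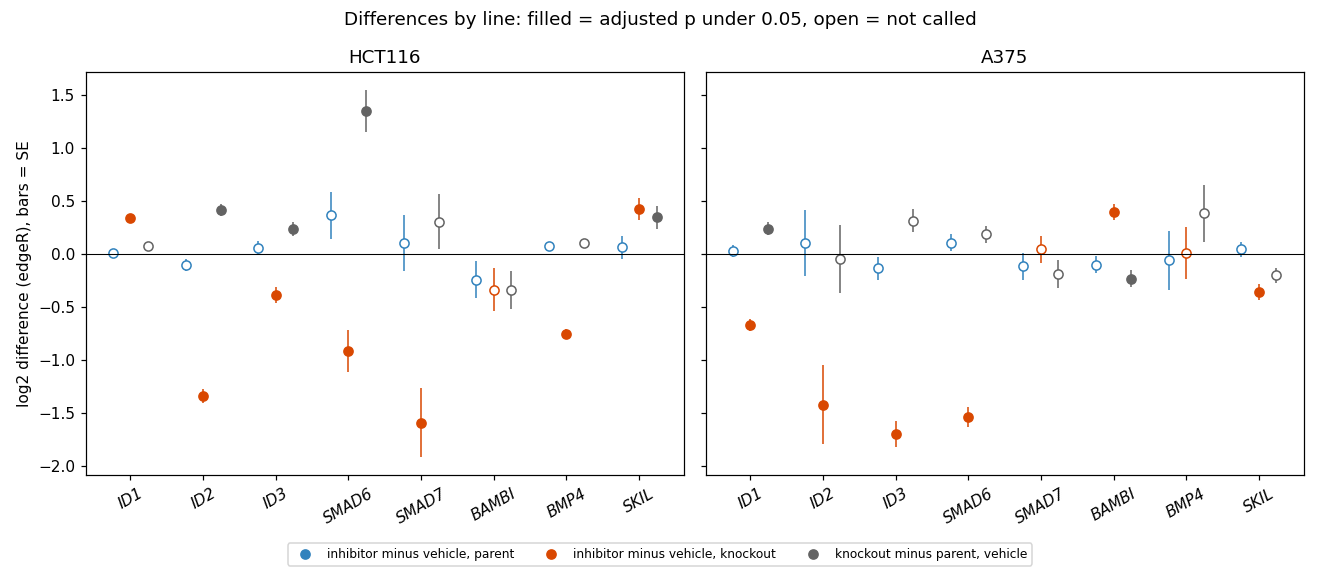
The log2 differences of the 8 genes in HCT116 (left) and A375 (right) are shown for inhibitor minus vehicle in parent cells, the same in knockout cells, and knockout minus parent in vehicle, with bars of 1 standard error; filled points had adjusted p under 0.05. The inhibitor values of the parents are all open, from -0.24 for BAMBI to 0.37 for SMAD6 in HCT116 and closer to 0 in A375, while those of the knockouts reach -1.59 for SMAD7 in HCT116 and -1.69 for ID3 in A375.

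Whether knockout and parent responded differently to the inhibitor was tested with the interaction term of each line. Each line had 1 knockout clone, so loss of PTDSS2 and other traits of that clone cannot be told apart, here or in vehicle. In HCT116 it was called for 6 of the 8 genes, 1 positive and 5 negative, and for 24.9% of all genes (11.1% positive and 13.8% negative). A negative value means a more negative response in the knockout. The values were -1.24 ± 0.09 for ID2, -0.83 ± 0.06 for BMP4, -1.70 ± 0.42 for SMAD7, -1.28 ± 0.30 for SMAD6, -0.44 ± 0.10 for ID3 and 0.34 ± 0.05 for ID1. SKIL was at 0.36 ± 0.15 (edgeR adjusted p = 0.0654), and was called without parent vehicle replicate 3 (0.42), parent inhibitor replicate 1 (0.43) or knockout inhibitor replicate 3 (0.45). BAMBI was at -0.10 ± 0.27.

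In A375 6 of the 8 genes differed between knockout and parent in their response, 1 of them positively and 5 negatively, and so did 27.3% of all genes (13.3% and 14.0%). SMAD6 differed by -1.65 ± 0.13, ID3 by -1.56 ± 0.17, ID1 by -0.70 ± 0.08, SKIL by -0.41 ± 0.10 and BAMBI by 0.50 ± 0.11. ID2 differed by -1.52 ± 0.49, a call lost without parent inhibitor replicate 3, knockout vehicle replicate 1 or knockout inhibitor replicate 2 (-1.30, -1.24 and -1.18). SMAD7 and BMP4 were at 0.16 ± 0.18 and 0.07 ± 0.37.

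The knockouts of the lines have no libraries in common, and their responses were set against each other in a fit of all 24. For 7 of the 8 genes the A375 effect minus the HCT116 effect passed the threshold, 3 positive and 4 negative, where 19.7% of all genes did (10.9% and 8.75%). ID3 and ID1 responded more negatively in A375, by -1.30 ± 0.15 and -1.01 ± 0.07, and so did SKIL, by -0.78 ± 0.13. SMAD7, BMP4 and BAMBI responded more positively, by 1.64 ± 0.33, 0.78 ± 0.21 and 0.75 ± 0.20. For ID2 the responses differed by -0.06 ± 0.29 (edgeR adjusted p = 0.959), with a 95% interval from -0.63 to 0.51 that leaves room for a difference of either sign. The difference for SMAD6, -0.62 ± 0.21, was not called in limma-voom (-0.64). Nor was it called without HCT116 knockout vehicle replicate 2 (-0.49), any 1 of the 3 HCT116 knockout libraries with inhibitor (-0.64, -0.59 and -0.62), or A375 knockout inhibitor replicate 3 (-0.59). That for BAMBI was 0.60 and not called without HCT116 knockout vehicle replicate 3.

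The knockout clones also differed from their parents before treatment. In HCT116 4 of the 8 genes were higher in the clone and 0 lower, where 21.3% of all genes were called (10.5% higher and 10.8% lower). SMAD6 stood at 2.17, 3.72 and 4.88 CPM in parent vehicle and 11.0, 7.31 and 9.01 CPM in knockout vehicle, a difference of 1.35 ± 0.20 (edgeR adjusted p = 1.19e-07). With inhibitor the knockout, at 4.69, 5.05 and 4.79 CPM, was within the range of the 6 parent libraries, 2.17 to 5.11 CPM. ID2 and ID3 were higher in the clone by 0.42 ± 0.05 and 0.24 ± 0.07. For SKIL the difference was 0.35 ± 0.10 (edgeR adjusted p = 0.011), lost with DESeq2 and without parent vehicle replicate 3 (0.35 and 0.29). The rest were not called, with ID1 at 0.08 ± 0.04, BMP4 at 0.10 ± 0.04, SMAD7 at 0.31 ± 0.26 and BAMBI at -0.34 ± 0.18. The clone difference and the inhibitor effect share the knockout vehicle libraries, so the values of 1 gene in both are not independent.

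In A375 the clone differences were small, 1 gene higher and 1 lower, where 16.3% of all genes were called (9.54% higher and 6.78% lower). Of the genes called, 58.5% were higher in the clone, and 38.3% when libraries were scaled by size alone. ID1 was higher by 0.24 ± 0.06 (edgeR adjusted p = 0.00208). BAMBI differed by -0.23 ± 0.08 (edgeR adjusted p = 0.038). It was not called with DESeq2 (-0.24) or limma-voom (-0.23), nor without parent vehicle replicate 1 or 3 (-0.26 and -0.18) or knockout vehicle replicate 1 or 2 (-0.21 and -0.22). ID3 at 0.32 ± 0.11 and SKIL at -0.20 ± 0.07 just missed the threshold (edgeR adjusted p = 0.0567 and 0.0532), and both were called with no filter on low counts. ID3 was also called with limma-voom (0.32) and without knockout vehicle replicate 2 (0.38). SKIL was also called with DESeq2 size factors, with library size alone (-0.21 and -0.24), and without parent vehicle replicate 3 or knockout vehicle replicate 3 (-0.25 and -0.24). SMAD6, SMAD7, BMP4 and ID2 were at 0.19 ± 0.08, -0.19 ± 0.13, 0.39 ± 0.27 and -0.04 ± 0.32.

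Adding the 3 ID genes shows how the split and the joint fall differ in amount. In HCT116 knockout cells their summed level was 643, 634 and 629 TPM in vehicle and 652, 617 and 664 TPM with inhibitor, with overlapping ranges. Within that sum the share of ID1 went from 65.2 ± 0.515% (SD, n = 3) to 81.1 ± 0.568%, and the share of ID2 from 20.3 ± 0.344% to 7.94 ± 0.730%. In A375 knockout cells the sum was 229, 216 and 247 TPM in vehicle and 122, 111 and 133 TPM with inhibitor, and the ranges were far apart. There the share of ID1 went from 64.6 ± 0.867% to 78.7 ± 3.52% and that of ID3 from 33.9 ± 1.43% to 20.3 ± 3.36%. So ID1 took a larger part of the ID RNA with inhibitor in both knockouts, on an even total in HCT116 and a lower one in A375.

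**Figure D3:**
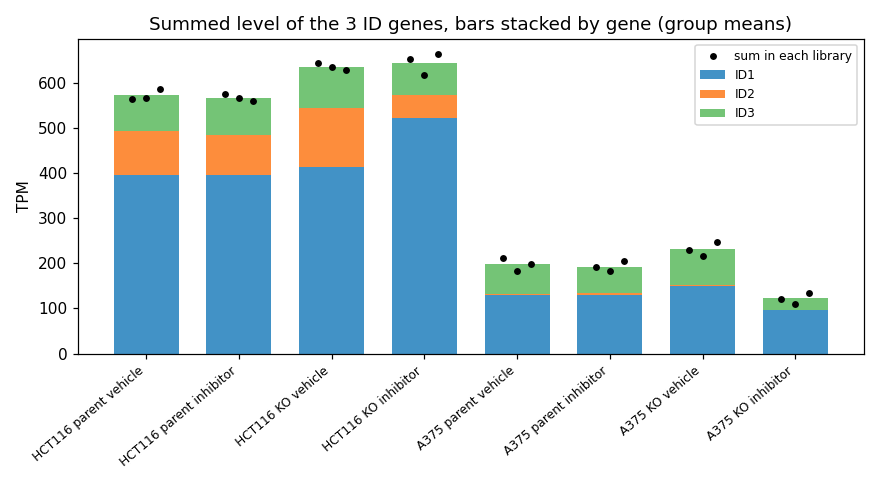
Stacked bars give the group means of ID1, ID2 and ID3 in TPM, and black points give the sum in each library. With inhibitor the HCT116 knockout keeps a sum of 617 to 664 TPM with a thinner ID2 layer, while the A375 knockout drops to 111 to 133 TPM.

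The other genes of the pathway showed no single direction. Of 73 listed genes outside the 8, 50 were tested in HCT116 knockout cells, where 9 rose and 12 fell with a median of -0.06, and 58 in A375 knockout cells, where 13 rose and 12 fell with a median of 0.05. Over all genes tested the shares were 17.1% up and 20.1% down in HCT116 and 18.7% up and 18.8% down in A375.

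Among ligands other than BMP4, HCT116 knockout cells had 1 fall, of GDF11 (-0.45 ± 0.15). The ligand list, BMP4 included, had 2 calls there, but 1 with DESeq2, 1 without knockout vehicle replicate 2 or knockout inhibitor replicate 2, and 4 without knockout inhibitor replicate 3. In A375 knockout cells BMP2, a BMP ligand close to BMP4, rose 2.31-fold, from 3.71 to 8.52 CPM. The activin subunit INHBA rose by 0.65 ± 0.08 and BMP8B by 0.41 ± 0.08 on the log2 scale. TGFB2 fell (-1.82 ± 0.24) at a low level, from 6.27 to 1.76 CPM. BMP2 and BMP8B were named after their values were seen. Of the receptors 4 of 10 rose and 2 fell in HCT116, and in A375 3 of 11 rose and 1 fell. The type I receptor genes TGFBR1 and ACVR1 rose in both lines, TGFBR1 by 0.27 ± 0.06 in HCT116 and 0.23 ± 0.07 in A375, and ACVR1 by 0.32 ± 0.10 and 0.37 ± 0.09. The co-receptor TGFBR3 fell in HCT116 (-0.45 ± 0.13) and rose in A375 (0.52 ± 0.17, with overlapping groups). The co-receptor ENG rose in HCT116 by 1.01 ± 0.34 at a low level, from 1.30 to 2.66 CPM, and fell in A375 (-0.33 ± 0.04). In HCT116 the receptor list had 2 calls with DESeq2 and 3 without knockout inhibitor replicate 3. In A375 it had 2 calls without knockout vehicle replicate 3 or knockout inhibitor replicate 3.

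The signal-carrying SMADs had small differences. In HCT116 knockout cells SMAD3 was at 0.27 ± 0.04 and SMAD5 at -0.15 ± 0.05, the 1 rise and 1 fall among 6. The list had 1 call with DESeq2, and 1 without knockout vehicle replicate 3 or knockout inhibitor replicate 3. In A375 SMAD4 at 0.23 ± 0.05 was the 1 rise among 5, with 0 falls. Of the secreted antagonists 4 were tested in each line, and FSTL3, which binds activin, fell in both (-0.27 ± 0.09 in HCT116 and -0.47 ± 0.07 in A375). In HCT116 no antagonist was called with DESeq2 or without knockout vehicle replicate 3, and in A375 the list had 2 calls without knockout inhibitor replicate 1.

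The intracellular brakes, a list that includes SMAD6, SMAD7, BAMBI and SKIL, had 2 rises and 7 falls among 12 in HCT116 knockout cells and 3 rises and 5 falls among 13 in A375. Those 4 genes were chosen on these data, and without them the list had 1 rise and 5 falls among 8 in HCT116, where 17.1% of all genes rose and 20.1% fell. In A375 it had 2 rises and 3 falls among 9 without them, where 18.7% of all genes rose and 18.8% fell. SMURF2, a ubiquitin ligase that works with the inhibitory SMADs, fell in both lines, by -0.39 ± 0.04 and -0.59 ± 0.05. The co-repressor gene TGIF2 fell in both (-0.60 ± 0.13 in HCT116 and -0.39 ± 0.07 in A375), and its relative TGIF1 rose in both (0.18 ± 0.04 and 0.50 ± 0.08). Of the E proteins that the ID proteins bind, TCF3 fell in both lines (-0.25 ± 0.04 and -0.31 ± 0.05). TCF12 was called in neither (-0.06 ± 0.06 in HCT116 and -0.07 ± 0.04 in A375), nor was TCF4 in A375 (-0.01 ± 0.12). ID4, another ID gene, was not among the genes tested in HCT116 and rose in A375 by 1.24 ± 0.26, from 1.67 to 3.97 CPM, a low level.

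Other targets went both ways. ATOH8, a BMP target, fell in A375 by -1.34 ± 0.28 at a low level (3.77 to 1.47 CPM), and GATA2 rose in HCT116 (0.47 ± 0.12) and fell in A375 (-0.46 ± 0.12). Of TGF-beta targets, 2 of 6 rose and 1 fell in HCT116, and 3 of 8 rose and 3 fell in A375. CCN2, which is also a YAP target, fell in both lines (-1.23 ± 0.24 and -1.67 ± 0.06). Its level was low in HCT116, from 5.6 to 2.4 CPM, and higher in A375, from 97.1 to 30.4 CPM. JUNB rose in both (0.34 ± 0.07 in HCT116 and 0.60 ± 0.05 in A375).

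**Figure D4:**
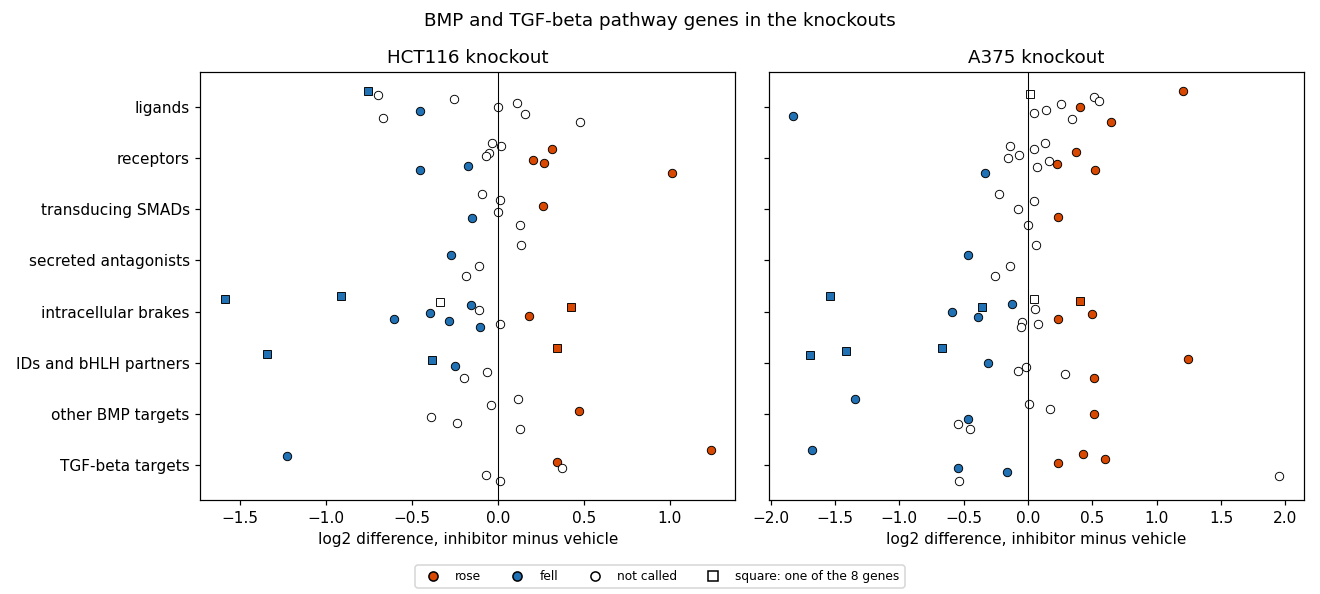
Each point is 1 pathway gene placed by its log2 difference between inhibitor and vehicle in the HCT116 (left) and A375 (right) knockout, in rows by role; orange rose, blue fell, white was not called, and squares mark the 8 genes. The squares were chosen on these data, so their places, such as SMAD7 at -1.59 in HCT116 and ID3 at -1.69 in A375, are a description. Squares and other genes lie on both sides of 0. Among the other genes CCN2 was at -1.23 in HCT116 and -1.67 in A375, and TGFB2 at -1.82 in A375.

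Genes with the pattern most like each of the 8 were found by the root mean square difference in log2 CPM over the 24 libraries, each gene centred within its line. CNN3, a calponin gene of the actin cytoskeleton, was nearest to ID1, at 0.0816 where ID1 itself varied by 0.217, and its inhibitor effects had opposite signs in the knockouts, as those of ID1 did (log2 0.33 for HCT116 and -0.67 for A375). NABP1 came next at 0.111. For ID2 the nearest were RFLNB (0.335) and ARHGAP29 (0.356), and for ID3 FSTL1 (0.227) and SNAPC1 (0.245). IRS1 (0.343) and LMO7 (0.353) were nearest to SMAD6, HAUS7 and DUSP7 (each 0.266) to SMAD7, and SLC12A2 (0.142) and STXBP5 (0.145) to BAMBI. SH3RF1 (0.170) and PLD6 (0.174) were nearest to BMP4, and ENAH (0.143) and HMGB2 (0.147) to SKIL. Apart from that of CNN3 to ID1, these distances are a large part of the members' own variation. Beside the value for ID1 above, it was 0.623 for ID2, 0.483 for ID3, 0.592 for SMAD6, 0.469 for SMAD7, 0.237 for BAMBI, 0.293 for BMP4 and 0.286 for SKIL. IRS1, for example, was at 0.02 in the HCT116 knockout with inhibitor, where SMAD6 fell.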

How the data were processed

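Poly(A) RNA was sequenced in 24 libraries, 12 per line. Per the submitters' processing notes, STAR 2.4.2a, RSEM 1.2.23 and hg19 were used. Strand setting and annotation release: not given in the sources used here, so reads from overlapping genes cannot be told apart. In the RefSeq table an unnamed locus overlaps each of ID3 and BMP4. The values deposited by the authors are, per the file headers, expected counts per gene and TPM, which is scaled for gene length. Symbols came from a RefSeq table of GRCh38.p14 (25220 of 25343 identifiers matched), and promoter windows from RefSeq on the same build.

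Counts were rounded and TMM-scaled, and edgeR's default filter on low counts was applied (at least 10 counts, total at least 15). The main test was edgeR's quasi-likelihood F test (edgeR 4.0.16, R 4.3.3), robust and two-sided, with a mean for each of the 4 groups of a line. Comparisons between lines used all 24 libraries. P-values were adjusted over all genes tested (Benjamini-Hochberg), and "rose" or "fell" means adjusted p under 0.05. The standard error is the log2 difference divided by the square root of F. CPM levels use TMM factors over 24 libraries. Likeness was measured in log2 CPM (prior count 2) among genes averaging at least 8 CPM, with unnamed loci, antisense and small RNA genes skipped. The fit was tested on simulated data.

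The members and lists were chosen with earlier results of these data known. Named genes are PTDSS2, the 8 genes, in each knockout up to 2 called genes per list by adjusted p, and the 2 genes most like each member. BMP2, BMP8B, TCF12, TCF4 and the cell type markers given with differences were added after their values were seen. 1 gene that this rule names is not reported here. As alternatives, other scalings (DESeq2 size factors, or none beyond library size), other tests (DESeq2 1.42.0, limma-voom with limma 3.58.1), no filter, a replicate block, TPM levels and the omission of each library were tried.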

Additional observations from a re-analysis of the deposited data

Results flagged for a closer look

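The results in this part differ between groups by a test of the difference itself, on the log2 scale. The genes were chosen on these same 24 libraries, so the calls are a description and no independent support. The interaction of inhibitor and knockout in HCT116 was called for ID1 (0.34), ID2 (-1.24), ID3 (-0.44), SMAD6 (-1.28), SMAD7 (-1.70) and BMP4 (-0.83). The same interaction in A375 was called for ID1 (-0.70), ID2 (-1.52), ID3 (-1.56), SMAD6 (-1.65), BAMBI (0.50) and SKIL (-0.41).

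Between the knockouts, the A375 effect minus the HCT116 effect was called for ID1 (-1.01), ID3 (-1.30), SMAD6 (-0.62), SMAD7 (1.64), BAMBI (0.75), BMP4 (0.78) and SKIL (-0.78). The call for SMAD6 was lost with limma-voom and without any 1 of 5 libraries, and that for BAMBI without HCT116 knockout vehicle replicate 3. That for ID2 in A375 was lost without any 1 of 3 libraries. For ID1 and SKIL the effects in the knockouts had opposite signs and each was called. SMAD7 fell in HCT116 and had overlapping groups in A375, where BMP4 also had. The cause of these differences was not tested.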

How the results depend on the processing

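Of 1103 recomputed differences of the 8 genes, 1070 kept their side of the threshold, 20 lost a call, 13 gained one, and 0 called values changed sign; 31 uncalled values did. In HCT116 parent cells 0 genes were called, against 4 without a filter, 1 with DESeq2 and 0 to 2 with a library left out. The clone comparisons had 1798 calls with DESeq2 against 2804 in HCT116, and 1371 against 2196 in A375. In A375 parent cells 14 genes were called, and 9 to 15 with a library left out, the fewest without vehicle replicate 3. Of the 8 genes, 2 were called in the A375 clone, against 4 without a filter, 1 with DESeq2 and 1 to 3 with a library left out. With a replicate block 4 of the 8 genes were called in the A375 clone and 1 gene of all in HCT116 parent cells. Libraries of the same number did not deviate together (r from -0.07 to 0.09 in HCT116 and from -0.05 to 0.09 in A375), and 6 of 12 HCT116 and 2 of 12 A375 libraries correlated best with their own number, so the numbers were not taken to pair libraries. Of 56 ratios of group means, 1 moved by more than the spread in TPM, that of SMAD6 in the A375 clone (0.27). Depth limits ID2 and BMP4 in A375 and SMAD6 and SMAD7 in HCT116.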
